A study of Mus musculus with 2 samples.

Results

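Mitochondrial ribosomal protein genes were taken as all protein-coding genes whose mouse symbol begins with Mrpl or Mrps followed by a digit. The rule used the name alone and no measured value. It found 77 genes among 21474 protein-coding genes and 43346 genes of every type. Of these, 50 encode proteins of the large subunit and 26 encode proteins of the small subunit. Mrps36 carries the family name but its product is a part of the 2-oxoglutarate dehydrogenase complex, so it was counted as belonging to neither subunit. Mrps30 and Mrps18a were counted with the large subunit, where structures of the mammalian mitochondrial ribosome place their products. Mrpl33 was not analysed here.

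The study measured RNA from skeletal muscle of newborn B6NCrl mice at day 0 after birth, and the labels describe each sample as a portion taken from 1 pup. Both libraries belong to 1 group, so no condition is compared, and they carry the biological replicate numbers 1 and 2. Each was made by a SmartSeq method, which amplifies full-length cDNA, from 13 pg of total RNA, the content of about 1 cell, drawn from a piece of tissue and not from a single cell. RNA above a size of 200 was used and spike-in RNAs were added. The labels give both samples the same donor entry but separate sample records, and sex was not collected. The spread between the libraries can hold differences between pups, between tissue pieces and between amplifications, which cannot be told apart.

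The mitochondrial ribosome makes the few proteins that mitochondrial DNA encodes, all of them parts of the machinery of oxidative phosphorylation. Its ribosomal RNAs come from mitochondrial DNA, while every one of its proteins is encoded in the nucleus, made in the cytosol and imported. Some of the proteins have counterparts in bacterial ribosomes and others exist only in mitochondria. One copy of nearly every protein goes into each ribosome, Mrpl12 of the stalk being a known exception. Muscle relies heavily on mitochondria, and inherited defects of several of these proteins cause disease of heart, muscle and brain in humans.

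Expected counts, which are estimated reads, summed to 32103374 for replicate 1 and 38977618 for replicate 2, and the 77 genes held 122155 and 200465 of them. Levels are in TPM, reads adjusted for transcript length and scaled to the same sum in each library, and values given in pairs are those of replicate 1 and replicate 2. The spike-in share of TPM was 9.44% and 4.54%. All 7 skeletal muscle markers were found in both libraries, with Acta1, skeletal muscle actin, at 64537 and 61754 TPM. The 5 fibroblast markers were found in both as well. Other lists differed between the libraries. Of 4 endothelial markers 2 were found in both, and Pecam1 was at 182 and 0.060 TPM. Of 3 leukocyte markers 1 was found in both, of 3 erythroid markers 2, and of 2 adipocyte markers 1. Both liver markers were found in replicate 2 only, Alb at 38.03 TPM and Apoa1 at 13.5 TPM. Neither of 2 epidermal markers was found. The part of these differences in the values below was not tested.

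A gene was called found in a library at 1 TPM or more with at least 5 expected counts. Of the 77 genes, 50 (64.9%, 95% Wilson interval 53.80 to 74.65) were found in both libraries, against 18.2% of all protein-coding genes. Only 4 (5.19%) were found in replicate 1 alone and 20 (26%) in replicate 2 alone, against 8.22% and 10.7% of all protein-coding genes. The remaining 3 (3.9%) were found in neither, against 62.8%. Replicate 1 thus held 54 of the 77 (70.1%) and replicate 2 held 70 (90.9%), against 26.4% and 28.9% of all protein-coding genes. Shares of the 1-library classes depend on how many genes were found in neither. Of all protein-coding genes, 3908 were found in both, 1766 in replicate 1 only and 2305 in replicate 2 only. So 26% against 10.7% does not by itself show an excess of that class among found genes. For comparison, 78 cytosolic ribosomal protein genes and 36 nuclear genes of respiratory complex I were taken, and all were found in both. These 2 sets were taken by name with some names removed, among them Rpl3l, Rpl10l, Rpl22l1, Rpl39l, Rps27l, Rps4l and Ndufa4. Fau was not among the 78. No gene was removed from the 77, so the shares compare selected sets with an unselected one. In tissue RNA, fewer cells of a type and less RNA per cell cannot be told apart. The intervals of these shares are binomial over genes and take genes as independent, and they hold no error of read counting or amplification. Reads amplified without molecular identifiers are not independent molecules, so limits from a count of 0 cover counting error only.

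**Figure D1:**
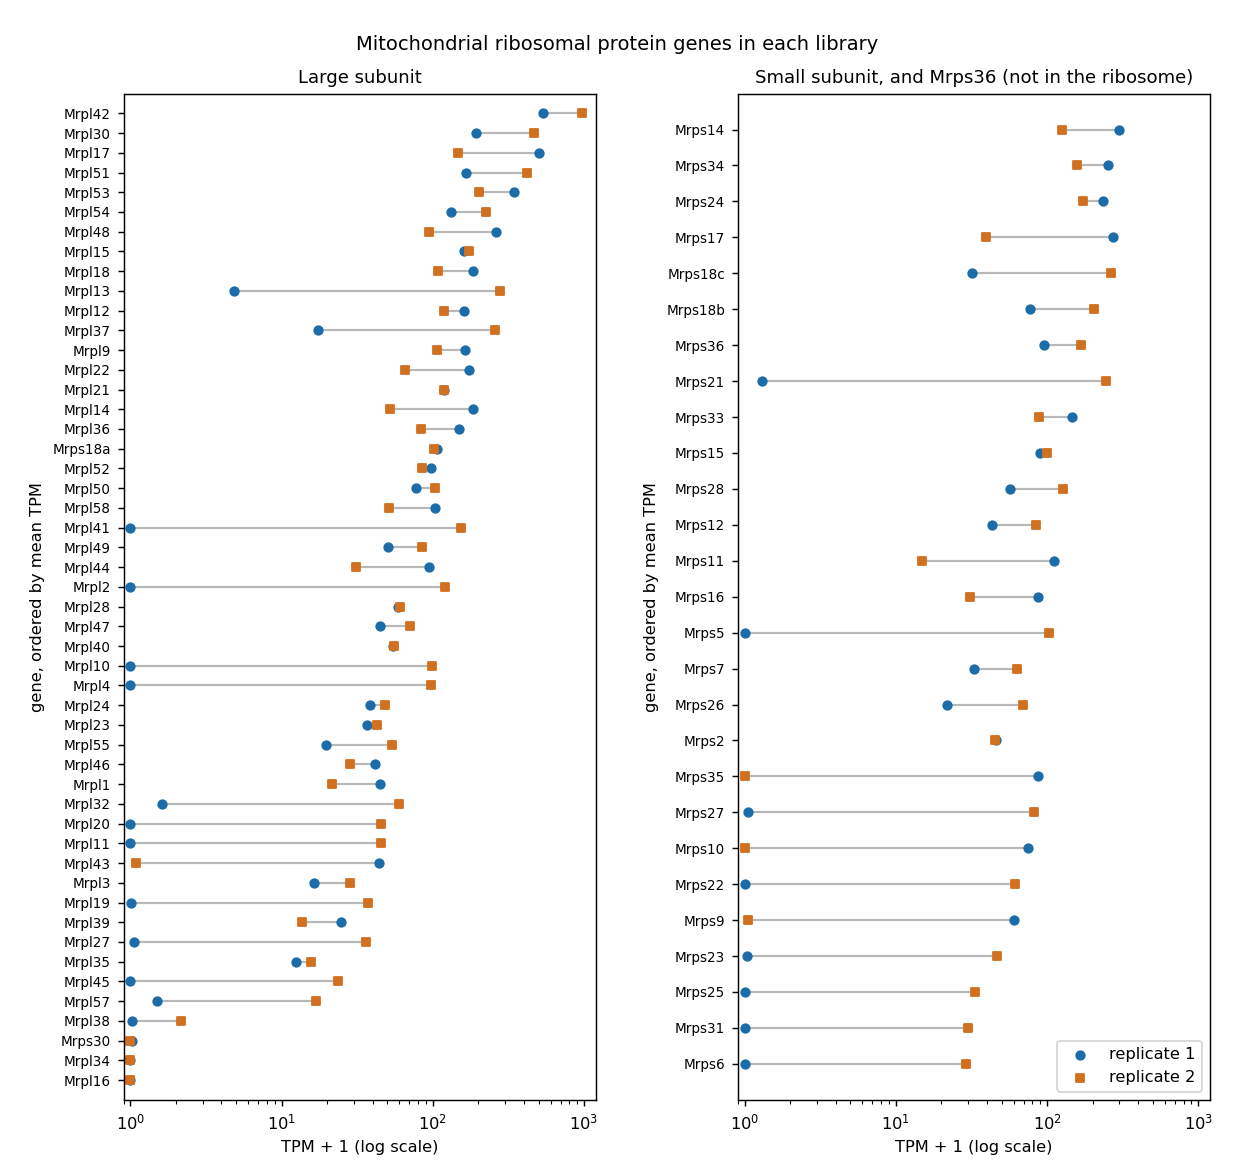
TPM + 1 on a log axis for each of the 77 genes, ordered by mean TPM within the large subunit (left) and the small subunit with Mrps36 (right); blue circles are replicate 1, orange squares replicate 2, and a grey line joins the 2 values of a gene. Most points lie between 10 and 300 TPM. Lines that reach or nearly reach the left edge mark the genes found in 1 library, 20 in replicate 2 only and 4 in replicate 1 only. These lines are long except that of Mrpl38, at 0.03 and 1.15 TPM.

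The classes were then counted by subunit and by origin. Of the 50 large-subunit genes, 34 were found in both libraries, 1 in replicate 1 only, 12 in replicate 2 only and 3 in neither. Of the 26 small-subunit genes, 15 were found in both, 3 in replicate 1 only and 8 in replicate 2 only. Of 45 genes assigned a bacterial counterpart 30 (66.7%, interval 52.07 to 78.64) were found in both. Of 31 assigned as specific to mitochondria 19 (61.3%, interval 43.82 to 76.27) were. Mrps18a and Mrps18b were put among the 31, although they are relatives of a bacterial protein. Mrpl55 was put among the 45, an assignment that was not checked. All of these named genes were found in both libraries, so both shares depend on where they are put. The intervals by origin overlap, and so do those of the subunits, 54.19 to 79.24% for the large and 38.95 to 74.46% for the small.

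Among parts of the ribosome, 8 of 9 genes for proteins around the exit of the peptide tunnel were found in both libraries. The exception was Mrpl45, whose product anchors the ribosome to the inner membrane, with 0 TPM in replicate 1 and 22.4 TPM in replicate 2. Of the 7 genes of the central protuberance 5 were found in both. Of 8 genes for the head of the small subunit, 4 were found in both, 3 (Mrps9, Mrps10 and Mrps35) in replicate 1 only and 1 (Mrps31) in replicate 2 only. Of the 4 genes for stalk proteins, Mrpl1 and Mrpl12 were found in both, and Mrpl10 and Mrpl11 in replicate 2 only. Mrpl10 anchors the copies of Mrpl12 to the ribosome, and the pair had unlike values in replicate 1. Mrpl12 had 159 TPM in the first library and 118 TPM in the second. Mrpl10 had 0 and 98.4 TPM, and Mrpl11 had 0 and 44.2 TPM. With 4 to 9 genes each, the intervals of these shares overlap.

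Levels lay in the middle to upper range of found genes. The median over all 77 genes of the mean TPM of both libraries was 58.6, with medians of 43.7 in replicate 1 and 64.9 in replicate 2. Among the 54 genes found in replicate 1, 50 lay between 10 and 300 TPM, and among the 70 found in replicate 2, 66 did. Of the 54, 29 lay above the upper quartile (86.1 TPM) of all found protein-coding genes of that library and 2 below the lower quartile (14.2 TPM). Of the 70, 36 lay above the upper quartile (74.2 TPM) and 2 below the lower (13.2 TPM). The cytosolic ribosomal protein genes had a median of mean TPM of 573 and the complex I genes one of 441, both well above that of the mitochondrial ribosome.

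**Figure D2:**
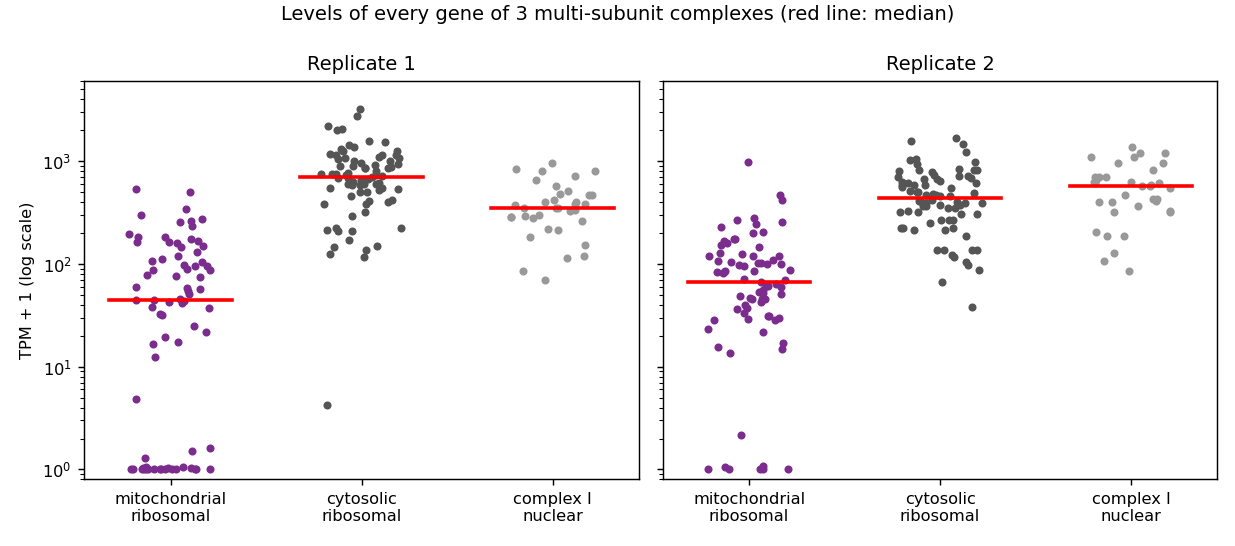
TPM + 1 on a log axis for the genes taken for 3 complexes in replicate 1 (left panel) and replicate 2 (right panel). Each point is 1 gene and the red line is the median. Medians were 43.7 and 64.9 TPM for the 77 mitochondrial ribosomal genes, Mrps36 among them. They were 703 and 436 TPM for the cytosolic ribosome and 348 and 575 TPM for complex I. Genes at 0 occur in the first set alone, from which no gene was removed, unlike the other 2 sets.

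The 77 genes of the name rule, Mrps36 among them, together made up 0.648% and 0.783% of TPM, or 0.716% ± 0.0955 (SD, n = 2). Left out of this sum are 5 genes of ribosome proteins without the family name, with 262 and 271 TPM together. The cytosolic ribosome took 5.12% ± 1.68 and complex I 1.76% ± 0.478 (SD, n = 2 each). Large-subunit genes made up 0.493% ± 0.0771 and small-subunit genes 0.210% ± 0.0133 of TPM (SD, n = 2 each). Per gene, the median of small-subunit genes was 0.927 times that of large-subunit genes when the mean of both libraries was taken. In the single libraries the same ratio was 1.16 in replicate 1 and 1.05 in replicate 2, so the data give no direction for a difference between the subunits.

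Mrpl42, a large-subunit protein found only in mitochondria, had the highest level, with 531 TPM (7350 counts) in replicate 1 and 971 TPM (17199 counts) in replicate 2. The gene lies on chromosome 10 at 95480805 to 95501940 of GRCm38, on the minus strand. It was the highest of the 77 genes in both libraries. Next by mean TPM came Mrpl30, with 193 and 465 TPM, and Mrpl17 of the tunnel exit, with 504 and 146 TPM. Mrpl51 had 165 and 416 TPM and Mrpl53 had 341 and 200 TPM. Apart from Mrpl42, these changed order between the libraries.

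In the small subunit the highest genes found in both were Mrps14, Mrps34, Mrps24, Mrps17 and Mrps18c. Mrps14, the counterpart of a bacterial protein of the head, had 297 TPM in replicate 1 and 124 TPM in replicate 2. Mrps34, needed in mice to keep the small ribosomal RNA stable, had 254 and 157 TPM. Mrps24 had 233 and 172 TPM, a difference of 1.35-fold. Mrps17 had 272 and 38.5 TPM, while Mrps18c had 31.0 and 263 TPM, so these genes differed more between the libraries than from each other in the mean.

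At the low end of the large-subunit genes found in both stood Mrpl35, at 11.5 TPM in replicate 1 and 14.6 in replicate 2, and Mrpl39, at 23.6 and 12.6 TPM. Mrpl3, whose bacterial counterpart reaches towards the peptidyl transferase centre, had 15.5 and 27.4 TPM. Mrpl1 had 43.7 and 20.6 TPM, and Mrpl46 had 40.6 and 27.2 TPM. The lowest small-subunit genes found in both were Mrps2, with 44.8 and 44.4 TPM, Mrps26, with 20.8 and 68.7 TPM, and Mrps7, with 31.8 and 62.0 TPM. Mrps16 had 86.6 and 30.02 TPM, and Mrps11 had 110 and 13.8 TPM. Defects of Mrps16 cause a fatal disorder of newborns in humans, and Mrps11 is the counterpart of a bacterial protein of the platform.

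Other members with a known role of their own were found in both libraries. Mrps12, a protein of the decoding centre, was at 42.0 and 83.1 TPM. Mrpl58, a peptidyl-tRNA hydrolase that frees stalled ribosomes, had 103 and 49.96 TPM. Mrpl44, which has the fold of a ribonuclease, had 93.9 and 29.8 TPM. These differed 1.98-fold, 2.05-fold and 3.15-fold between the libraries. The 3 mammalian relatives of a single bacterial protein, Mrps18a, Mrps18b and Mrps18c, were all found in both libraries. Mrps18a had 106 and 101 TPM, Mrps18b had 75.6 and 202 TPM, and Mrps18c, given above, differed 8.51-fold. Mrps36, outside the ribosome, had 93.8 and 167 TPM.

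Genes found in a single library mostly had many counts there and were at or near 0 in the other. Their median level was 66.7 TPM for those of replicate 1 alone and 45.1 TPM for those of replicate 2 alone. Genes found in both had higher medians, 93.8 TPM in replicate 1 and 85.5 TPM in replicate 2. The 4 genes of replicate 1 alone had 1168 to 1978 counts there and at most 3 counts in replicate 2. Mrps35 had 86.6 TPM and 1978 counts in replicate 1 and 0 counts in replicate 2. Mrps10 had 74.2 TPM and 1660 counts in replicate 1 and 0 in replicate 2. Mrps9 had 1906 counts in replicate 1 and 2 in replicate 2, at 59.2 and 0.050 TPM. Mrpl43 had 1168 counts in replicate 1 and 3 in replicate 2, at 43.0 and 0.090 TPM.

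The 20 genes of replicate 2 alone had 47 to 4949 counts there, with a median of 1592, and at most 27 counts in replicate 1, where 12 were at 0. Mrps21, a small-subunit protein with a bacterial counterpart, had 244 TPM (2566 counts) in replicate 2 and 0.30 TPM (2 counts) in replicate 1. Mrpl41 had 152 TPM in replicate 2, and Mrpl2, whose bacterial counterpart lies close to the peptidyl transferase centre, had 118 TPM. Mrps5 had 102 TPM and Mrpl10 had 98.4 TPM in replicate 2. These last 4 had 0 counts in replicate 1. Mrps22, mutated in a human disorder of heart and kidney, had 60.5 TPM (2076 counts) in replicate 2 and 0 counts in replicate 1. A count of 0, taken to allow up to 3 counts, corresponds in replicate 1 to limits from 0.0442 TPM for Mrpl11 to 0.251 TPM for Mrpl41 among the 12 genes at 0.

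Counts of the 77 genes were mostly either 0 or at least 100. Of the 50 genes found in both libraries, 49 had 100 counts or more in each, and the lowest count was 60, for Mrpl13 in replicate 1. Among all 77 genes, 14 had 0 counts in replicate 1 and 5 in replicate 2, while 10 and 3 had between 1 and 99. Of the 20 genes found in replicate 2 only, 19 had at least 100 counts there, against 96.1% of the 2305 protein-coding genes of that class. For replicate 1 only the shares were 4 of 4, against 93.7% of 1766 genes. Both are near the shares of all protein-coding genes, so high counts in 1 library alone are not particular to the family. The other counts of this paragraph were not made for all protein-coding genes.

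Mrpl16, whose bacterial counterpart lies at the binding site of transfer RNA, and Mrpl34 had 0 counts in both libraries. Mrps30 had 1 count in replicate 1 and 0 in replicate 2. All 3 encode proteins of the large subunit. A count of 0 in both libraries does not show absence, since 12 genes at 0 in replicate 1 had 636 counts or more in replicate 2.

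How often a gene of one library was found in the other was counted by level. Of 32 genes at 30 to 100 TPM in replicate 2, 21 (65.6%) were found in replicate 1, against 65.0% of all protein-coding genes at that level. At 100 to 300 TPM it was 19 of 23 (82.6%, interval 62.86 to 93.02), against 89.9%. At 10 to 30 TPM it was 7 of 11 (63.6%), against 51.6%. In the other direction, 20 of 24 genes at 30 to 100 TPM in replicate 1 were found in replicate 2 (83.3%, interval 64.15 to 93.32), against 69.6%. All 20 genes at 100 to 300 TPM and all 6 at 10 to 30 TPM in replicate 1 were found in replicate 2, against 91.4% and 59.4%, with intervals of 83.89 to 100% and 60.97 to 100%. Above 300 TPM stood 3 mitochondrial ribosomal genes in each library, all found in the other, against 100% and 99.8% of all protein-coding genes.

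**Figure D3:**
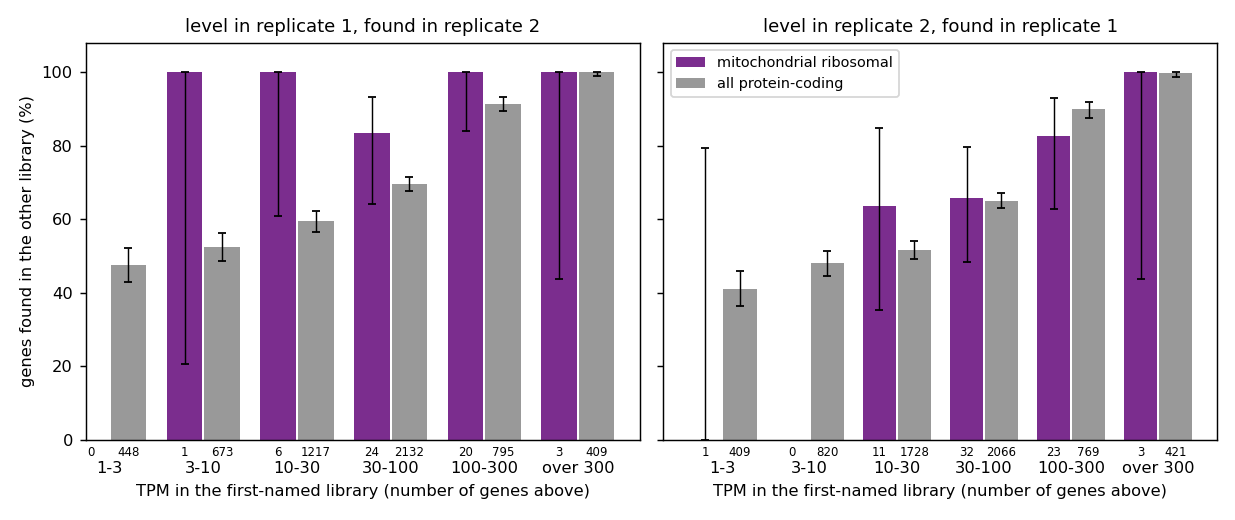
Share of genes found in the other library (%), by TPM in the library named first, for mitochondrial ribosomal genes (purple, left bar) and all protein-coding genes (grey, right bar); error bars are 95% Wilson intervals and the small figures give the number of genes. From replicate 2 to replicate 1 the purple intervals include the grey shares at 10 to 300 TPM (65.6% against 65.0% at 30 to 100 TPM). From replicate 1 to replicate 2 the purple interval at 10 to 30 TPM, from 6 genes, is 60.97 to 100%, above the grey 59.4%.

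The level of a gene was compared between libraries for the 52 genes with 10 counts or more in both. Of these, 11 (21.15%) were more than 2-fold higher in replicate 1, against 25.5% of 4331 protein-coding genes held to the same count minimum, and 11 (21.15%) were more than 2-fold higher in replicate 2, against 24.3%. The other 30 were within 2-fold. The median log2 ratio of replicate 1 to replicate 2, on the log2(TPM + 1) scale, was -0.02. The cytosolic ribosomal genes leaned to replicate 1, with 21 of 78 more than 2-fold higher there and 2 higher in replicate 2. Complex I leaned the other way, with 1 of 36 and 7 of 36.

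Toward replicate 1 the largest ratios were those of Mrps11 (log2 2.91), Mrps17 (2.79), Mrpl14 (1.81), Mrpl17 (1.78) and Mrpl44 (1.62). Toward replicate 2 they were those of Mrpl13 (log2 -5.85), Mrpl32 (-5.20), Mrpl37 (-3.87), Mrpl57 (-3.49) and Mrps18c (-3.05). Mrpl13, which has a bacterial counterpart, had 3.84 and 278 TPM, or 60 and 7189 counts. Mrpl37, specific to mitochondria, had 16.5 and 255 TPM. Mrpl32 (10 and 1219 counts) and Mrpl57 (27 and 1099 counts) were below 1 TPM in replicate 1, where the added 1 TPM lowers the ratio. As plain TPM the differences were 95.6-fold for Mrpl32, 72.4-fold for Mrpl13, 31.7-fold for Mrpl57 and 15.5-fold for Mrpl37, another order. Nearest to equality stood Mrpl21, at 118 and 118 TPM, Mrps2, at 44.8 and 44.4 TPM, and Mrpl40, at 53.8 and 54.3 TPM. Mrpl28 had 57.8 and 59.3 TPM, and Mrps18a followed. These ratios were chosen as extremes among 52 and each rests on 1 library per side.

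**Figure D4:**
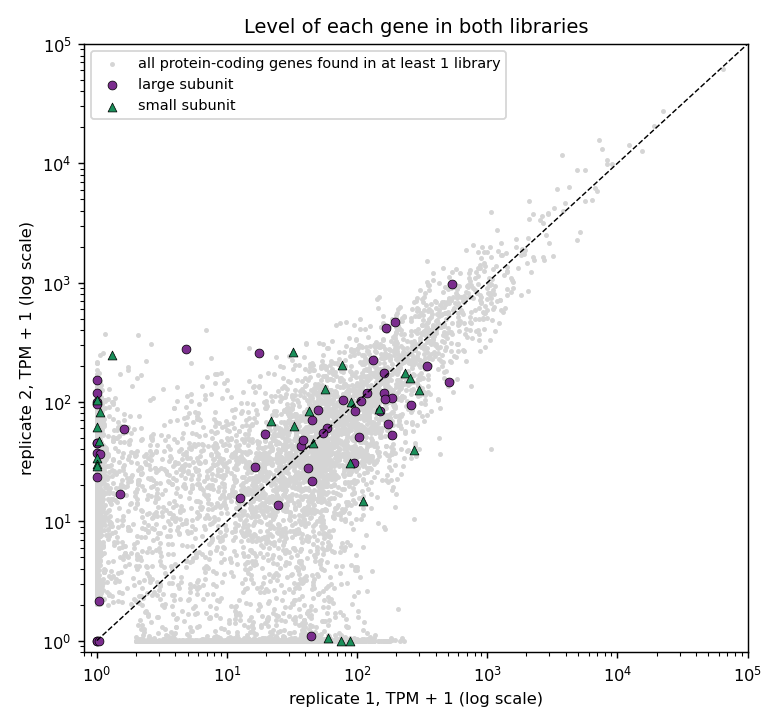
TPM + 1 in replicate 1 (horizontal) and replicate 2 (vertical), both log axes, with large-subunit genes as purple circles, small-subunit genes as green triangles, and all protein-coding genes found in at least 1 library in grey; the dashed line marks equal levels. The genes within 2-fold, 22 of the large and 7 of the small subunit, lie near the line, and the genes of 1 library lie along the axes. Mrps36, also within 2-fold, has no colour of its own.

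Since the proteins enter the ribosome in nearly equal number, the spread of their messages among genes was set beside the spread between libraries. Over the 50 genes found in both, the SD among genes of the mean log2(TPM + 1) was 1.13. The SD between libraries of a single gene was 1.08. Genes of identical level and that library spread would give means with an SD of 0.762, which leaves 0.836 among genes once it is removed. Over all 77 genes both values rise, to 2.16 among genes and 2.42 between libraries, since genes at 0 in a library enter. For the cytosolic ribosome the SDs were 1.15 among 78 genes and 0.675 between libraries, for complex I 0.883 and 0.607, and for all 3908 protein-coding genes found in both 1.95 and 1.12. Requiring a gene in both libraries leaves out the largest differences, and it left out 27 of the 77 genes here but none of the other complexes.

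**Figure D5:**
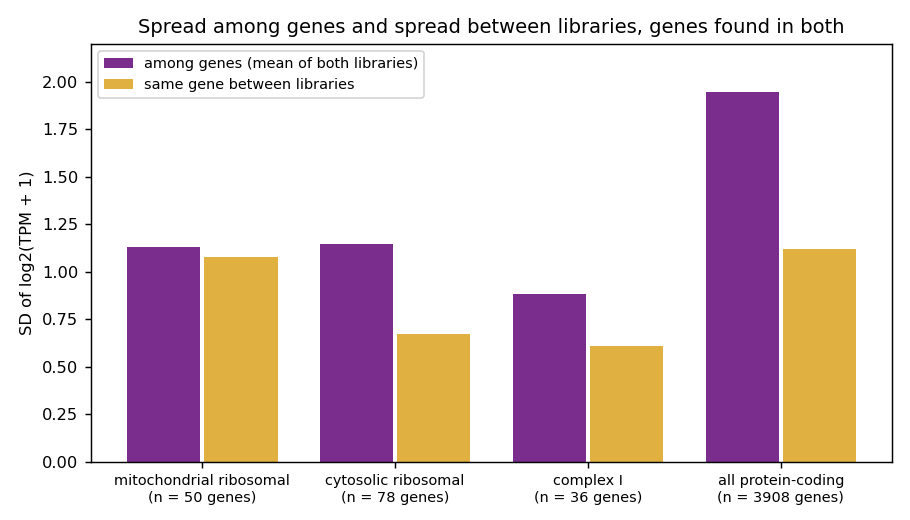
SD of log2(TPM + 1) among genes (purple, left bar) and between the 2 libraries for the same gene (yellow, right bar), for genes found in both libraries. The bars are near equal for the mitochondrial ribosome (1.13 and 1.08) and unequal for the other sets (1.95 and 1.12 for all protein-coding genes). The near equality depends on Mrpl13, without which the values were 1.13 and 0.914.

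The order of levels was compared next. Between libraries, Pearson's r of log2(TPM + 1) over the 50 genes was 0.370 and Spearman's rho 0.399. They were 0.832 and 0.813 over the cytosolic ribosomal genes, 0.739 and 0.687 over complex I, and 0.716 and 0.684 over all protein-coding genes found in both. These correlations are across genes of 2 libraries, and genes are not independent replicates. A set that spans a narrow range of levels gives a lower r for the same spread. By SD among genes, the family (1.13) was narrower than all protein-coding genes (1.95), near the cytosolic ribosome (1.15) and wider than complex I (0.883). The part of the range in these correlations was not tested. Mrpl13, at 3.84 and 278 TPM, is among the 50 genes. Of the 10 highest genes of each library 3 were shared, and of the 10 lowest 4.

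Transcripts of each gene were compared by their share. Of the 77 genes, 58 have several annotated transcripts and 19 have 1. Of the 41 genes with several transcripts that were found in both libraries, 27 had the same leading transcript, by the authors' estimated percent of the gene's TPM, and 14 another. In 15 of the 27 the leader held at least 90% in both, as in Mrpl12 (97.5% and 99.2% on Mrpl12-201) and Mrps18a (99.6% in both). By annotated type the leader was not a protein-coding transcript in 13 of the 41 in replicate 1 and in 9 in replicate 2. These counts were not made for other protein-coding genes, so they show no trait particular to the family. Mrps14 had 93.7% and 97.5% on Mrps14-201, a transcript annotated as subject to nonsense-mediated decay, and Mrps24 had 78.0% and 82.0% on Mrps24-201, annotated as a retained intron. Gene levels sum over all transcripts and so are not levels of coding messages alone. Among the 14, Mrps2 had 94.5% on Mrps2-202 in replicate 1, a transcript that held 0% in replicate 2, where Mrps2-201 held 100%. The gene level of Mrps2 was nearly equal all the same. Mrpl55 had 64.5% on Mrpl55-204 in replicate 1 and 94.9% on Mrpl55-201 in replicate 2.

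Other proteins of the mitochondrial ribosome lack the family name, and 4 of 5 of their genes were found in both libraries. Chchd1, of the small subunit, had 137 and 121 TPM, and Aurkaip1, also of the small subunit, had 58.2 and 114 TPM. Dap3, a GTP-binding protein of the small subunit, had 52.7 and 2.95 TPM, and Gadd45gip1, of the large subunit, had 14.8 and 14.9 TPM. Ptcd3, of the small subunit, had 0 and 17.7 TPM. The mitochondrial ribosomal RNAs were at 645 and 689 TPM for mt-Rnr1, of the small subunit, and 3791 and 4534 TPM for mt-Rnr2, of the large subunit. No ratio to the proteins' messages is given, since library methods capture ribosomal RNA and messages unequally.

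Genes that build the ribosome or work with it were counted by list. Of all protein-coding genes, 18.2% were found in both libraries, 8.22% in replicate 1 only, 10.7% in replicate 2 only and 62.8% in neither. The lists are short, and their counts are a description. Of 11 translation factors 3 were found in both, 2 in replicate 1 only, 4 in replicate 2 only and 2 in neither. The highest of them were Tufm, the elongation factor that brings transfer RNA, with 112 and 74.9 TPM, Mtif2, the initiation factor, with 35.0 and 48.9 TPM, and Mtif3, with 0 and 70.7 TPM. Of 24 assembly factors 5 were found in both, 4 in replicate 1 only, 4 in replicate 2 only and 11 in neither, and their highest were Nsun4, a methyltransferase of ribosomal RNA, with 48.4 and 93.8 TPM, Rbfa, with 0 and 71.7 TPM, and Mtg2, with 0.61 and 68.9 TPM. Of 17 mitochondrial aminoacyl-tRNA synthetases 2 were found in both, 4 in replicate 1 only, 3 in replicate 2 only and 8 in neither. Lars2, which charges leucine transfer RNA, led them with 176 and 248 TPM. Fars2, for phenylalanine, had 0 and 59.6 TPM. Of 9 genes of mitochondrial transcription and RNA handling 5 were found in both, 2 in replicate 1 only and 2 in replicate 2 only. Slirp, which stabilises mitochondrial messages, had 137 and 304 TPM, Tefm, the elongation factor of transcription, had 196 and 110 TPM, and Hsd17b10, a part of mitochondrial RNase P, had 141 and 135 TPM.

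The family shares features that the name rule did not use. The 77 genes lie on 17 chromosomes. A start site of a protein-coding gene on the other strand, pointing away, lay within 1000 bp for 18 of the 77 (23.4%), against 6.83% of all protein-coding genes. Both genes were found in both libraries in 2 of these 18 pairs, and 4 pairs fell in the same class. No share for other gene pairs was computed, so these counts are a description. Mrps12 and Sars2, the mitochondrial seryl-tRNA synthetase, start 172 bp apart, and Mrps12 had 42.0 and 83.1 TPM while Sars2 had 0 counts in both. Mrpl49 and Fau, a cytosolic ribosomal protein gene, start 59 bp apart, and Fau had 531 and 147 TPM where Mrpl49 had 49.3 and 84.2 TPM. Mrpl32 and Psma2, a proteasome subunit, start 75 bp apart, and Psma2 had 253 and 143 TPM where Mrpl32 had 0.61 and 58.3 TPM.

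Annotated exons of 32 of the 77 genes overlap those of another gene, in 28 cases on the opposite strand. Whether strand was used in counting is not given in the sources used here, so reads of such pairs may not be told apart. Mrpl46 and Mrps11 overlap each other, and Mrpl13 (Mtbp), Mrpl43 (Twnk), Mrpl44 (Wdfy1) and Mrps7 (Gga3) are among those with a partner on the opposite strand. Of the 32 genes 24 were found in both libraries, and of the 45 without such an overlap 26. Processed pseudogenes are a second source of shared reads. Mrpl23-ps1 had 1309 and 3613 counts, or 112 and 240 TPM, where Mrpl23 had 402 and 747 counts, or 35.8 and 41.6 TPM, so the level of Mrpl23 is uncertain. Counts that were not whole, the mark of divided reads, occurred in 16 of the 77 genes in at least 1 library, within a tolerance of 0.005 counts. Overlaps and counts that were not whole were not counted for other protein-coding genes, so they show no trait particular to the family.

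Genes found in both libraries were short, with a median length of 861 bp, against 2013 bp for all protein-coding genes found in both. Those of replicate 2 only had a median of 1346 bp and those of replicate 1 only 1218 bp. The lengths are the authors' averages over transcripts, here taken as the mean of both libraries, and depend on which transcript was read. For a gene of 1 library, the length from the library with few or no reads enters as well. Mrpl19 had 5000 bp in replicate 1, from 1 count, and 1214.6 bp in replicate 2. Lengths of all protein-coding genes of the 1-library classes are not given.

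Promoters were searched for 3 short motifs known from nuclear genes for mitochondria and ribosomes, on both strands. They were GCATGCGC, bound by NRF1, CCGGAAG, bound by ETS factors such as GABP, and AAGATGG, bound by YY1. RefSeq promoter windows of GRCm38.p6, from 250 bases before to 50 after a start, were matched by symbol for 68 of the 77 genes and gave 74 windows. The ETS motif was in 33.8% of these windows, against 8.86% of all 32851 windows and 11.6% of 21263 windows of protein-coding genes. The NRF1 motif was in 9.46%, against 2.71% and 3.52%, and the YY1 motif in 17.6%, against 6.34% and 6.24%. Any of the 3 was in 37 of the 74, against 16.6% of all windows and 19.5% of those of protein-coding genes. The windows of the family had a median GC content of 58.8%, against 56.3% of protein-coding windows and 52.7% of all windows. The part of GC content in these shares was not tested.

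The ETS motif occurred in genes of every class. It was in 17 of 45 genes found in both and in 6 of 17 found in replicate 2 only, and in 1 of 3 each of those found in replicate 1 only and in neither. Stretches just before the RefSeq start are printed for 6 genes. Those of Mrpl52, Mrpl22, Mrps22, Mrpl43 and Mrpl34 show the ETS letters in all 4 classes, and that of Mrpl9 shows the NRF1 letters, which were in 5 of 45 genes found in both, 2 of 17 found in replicate 2 only and 0 of 3 in each other class. Each reads 5′ to 3′ on the gene's strand, with the motifs of either strand in capitals, and CTTCCGG and GCGCATGC are the other-strand forms.
Mrpl52, found in both: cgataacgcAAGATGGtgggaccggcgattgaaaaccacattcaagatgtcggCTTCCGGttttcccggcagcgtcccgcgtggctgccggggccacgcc
Mrpl22, found in both: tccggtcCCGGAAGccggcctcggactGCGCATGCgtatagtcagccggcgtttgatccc
Mrpl9, found in both: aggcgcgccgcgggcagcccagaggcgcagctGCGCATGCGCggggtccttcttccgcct
Mrps22, found in replicate 2 only: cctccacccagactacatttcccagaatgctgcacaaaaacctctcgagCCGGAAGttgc
Mrpl43, found in replicate 1 only: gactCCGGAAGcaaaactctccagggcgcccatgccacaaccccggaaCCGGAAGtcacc
Mrpl34, found in neither: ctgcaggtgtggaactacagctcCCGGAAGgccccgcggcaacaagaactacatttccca
In GRCm38.p6 these are chr14:54426809-54426908 (plus strand) for Mrpl52, chr11:58171604-58171663 (plus) for Mrpl22, chr3:94443276-94443335 (plus) for Mrpl9, chr9:98601680-98601739 (minus) for Mrps22, chr19:45006443-45006502 (minus) for Mrpl43 and chr8:71464866-71464925 (plus) for Mrpl34. In Mrpl22 an ETS and an NRF1 motif stand together, and in Mrpl9 the NRF1 motif and its other-strand form overlap. Mrpl52 had 95.7 and 83.4 TPM, Mrpl22 had 173 and 64.9 TPM, and Mrpl9 had 163 and 105 TPM. Mrpl34, which also has an ETS motif, had 0 counts in both. A match is a description of letters and no measure of binding.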

How the data were processed

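A gene table and a transcript table of each of the 2 libraries were used. Expected counts are the authors' estimates of reads, often not whole, with no normalization. TPM was deposited as scaled by the authors to the same sum over all rows, spike-ins among them. The deposited FPKM values served as an alternative alone. The deposited percent per transcript is its share of the gene's TPM. Column names, per the file headers, match RSEM output with posterior means. Build mm10 and annotation GENCODE M4 are stated in the text deposited with the tables. Aligner, versions and strand use were not given in the sources used here.

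Names, types and positions came from GENCODE M21 on GRCm38, matched by identifier without version. Short numbered rows, with 0 and 182 counts, were left out. With 1 group of 2 libraries no test was made and both values are given in place of an SD for single genes. Ratios used log2(TPM + 1). Wilson intervals are at 95%. Thinning replicate 2 to the depth of replicate 1 left the same numbers found, but it could hardly do otherwise. The lowest gene found in replicate 2 had 47 counts, against a minimum of 5. Thinned reads also do not stand for fewer molecules sampled. The part of depth in the numbers found, 54 and 70, was therefore not tested. The rules for presence and ratios were run on simulated counts that hold counting error alone. Those counts had no loss in capture or amplification, so the run checks how the rules work and not the calls made here. The text names the 5 highest and lowest genes found in both of each subunit, the 5 highest of each 1-library class, those at 0, the 5 largest ratios each way and the 5 nearest to 0, and a fixed list of genes with known roles. A gene that the rule for other lists selects is not reported here. Examples among transcripts, neighbouring and overlapping genes and promoters were chosen after their values were seen. The members, lists and rules were chosen with earlier results of these data known. Python 3.11.15, numpy 2.4.6, pandas 2.3.3, scipy 1.17.1 and matplotlib 3.10.9 were used.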

Additional observations from a re-analysis of the deposited data

How the results depend on the processing

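Of 70 alternative values for 12 results, 8 moved past the margin set for them, which was 1.5 times for a count or an SD and the spread between replicates, or between genes for the median ratio, for other values. With any expected count above 0 taken as found, the genes of 1 library only were 15 and those of replicate 2 only 12, against 24 and 20 as reported. Among the 45 genes with no exon overlapping another gene, an alternative chosen after seeing the data, 26 were found in both, against 50 of 77, 17 in 1 library only and 14 in replicate 2 only, since fewer genes entered. Restricted to genes found in both, the median TPM was 109, against 58.6 over all 77. Over all 77 genes the SD among genes was 2.16 and that between libraries 2.42. The ratio of small-subunit to large-subunit median TPM was 0.927 from the mean of both libraries and 1.05 to 1.16 with either library left out, so its side of 1 depends on averaging. The median member TPM without 1 library was 43.7 to 64.9, and the summed share 0.648% to 0.783%. The median log2 ratio of -0.02 became -0.09 when centred on the median protein-coding gene, -0.34 with no count minimum and -1.01 when centred on 25 spike-ins, whose own median was 0.98. No paired analysis was possible because there is 1 group. With 2 libraries, no value here has more than 1 degree of freedom, and the absence of molecular identifiers means that read depth does not give the number of molecules sampled.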
